A study of Mus musculus with 24 samples.

Results

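The genes described here are 10 textbook markers of macrophages, the tissue phagocytes of the innate immune system: the surface receptor genes Adgre1, Csf1r, Cd14, Itgam, Mrc1 and Marco, the lysosome and granule genes Cd68, Lyz1 and Lyz2, and Cybb, a subunit of the phagocyte oxidase. They were chosen by name, and all of their array probe sets annotated to a single gene were used, 17 probe sets for 10 of the 18193 genes on the array. Transcripts were measured in 12 B-cell lymphomas of Emu-Myc mice, in which Myc is active throughout the B lineage, and every lymphoma gave 1 untreated array and 1 ADR array. All 24 arrays carried the same background: primary lymph node cells with retroviral Bcl2 (MSCVpuro), which blocks apoptosis, selected with puromycin and grown on a feeder layer of gamma-irradiated NIH 3T3 fibroblasts. The ADR group received 0.05 µg/ml Adriamycin, a DNA-damaging drug, in vitro for 5 days; the untreated group received none, and its time in culture was not given in the sources used here. Per the design text these Myc;Bcl2 cells respond to such damage with senescence, a lasting arrest of division. Mouse age, and whether feeder cells were removed before RNA was prepared, were not given either. Each lymphoma is a primary cell preparation rather than a clone, and the labels describe no sort for B cells.

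A macrophage depends on CSF1, the growth factor sensed by the receptor kinase that Csf1r encodes, and its identity is set largely by the transcription factor PU.1 (gene Spi1). Its other surface receptors have separate tasks: CD14 passes lipopolysaccharide to TLR4, CD11b (Itgam) pairs with CD18 (Itgb2) as an adhesion and complement receptor, and MARCO and the mannose receptor MRC1 bind microbial surfaces. Inside the cell, CD68 sits in endosome and lysosome membranes, lysozyme cleaves bacterial cell walls, and gp91phox (Cybb) is the catalytic core of the oxidase that makes superoxide. Some of these genes are not exclusive to macrophages: Cybb, for example, is also active in B cells. In RNA from a mixed culture, more cells of a type and more RNA per cell cannot be told apart.

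After ADR, 8 of the 10 markers rose, 0 fell, and Marco and Mrc1 did not pass the test. The rises lay between 2.42-fold for Cybb and 4.56-fold for Adgre1. The test was a paired limma fit with the lymphoma as a block, and all adjusted p-values given for changes are Benjamini-Hochberg values over the 34945 single-gene probe sets, called at 0.05. Where a gene had several probe sets, the one with the highest mean represented it. Of all genes represented this way, 13.4% were called higher and 12.5% lower. Of the markers' probe sets, 14 of 17 were called higher, against 11.3% of all single-gene probe sets. The median log2 change of the 10 markers was 1.47, beside -0.01 over all single-gene probe sets. Adgre1, Cd14, Cd68, Lyz1 and Lyz2 were higher with ADR in 12 of 12 lymphomas, which 2.44% of all single-gene probe sets were. These counts take Lyz1 and Lyz2 separately, although their representative probe sets gave nearly the same signal (Pearson r 0.996 untreated). Another Lyz1 probe set was weak, with means of 3.41 untreated and 3.89 with ADR, and was higher in 10 of 12 lymphomas.

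**Figure D1:**
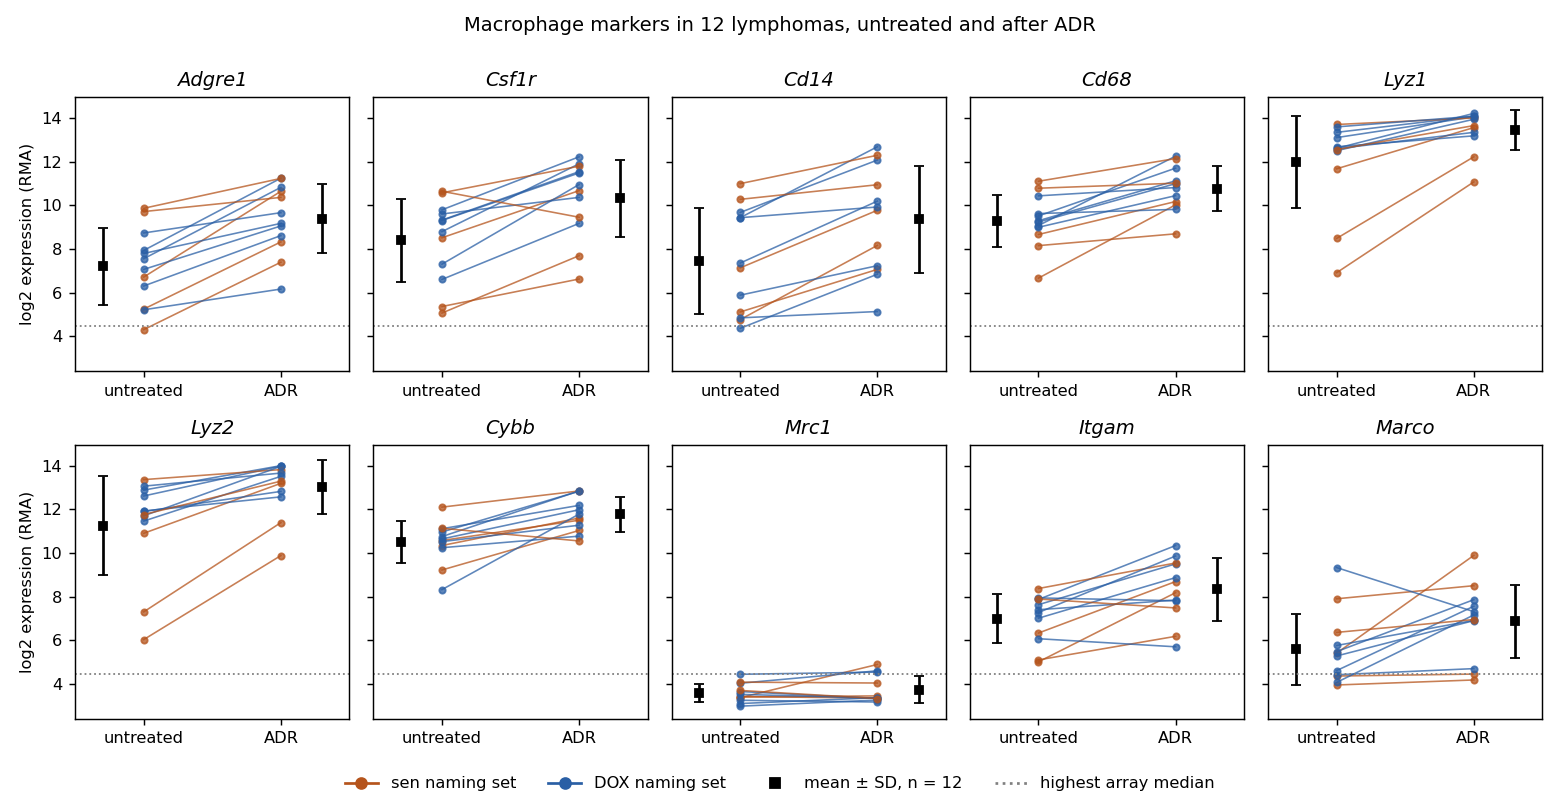
Log2 expression (RMA, y axis) of the 10 macrophage markers in untreated and ADR arrays; each line joins both arrays of 1 lymphoma, coloured by the word in the array file name of the treated sample, the squares give the mean ± SD (n = 12), and the dotted line marks 4.47, the highest array median. Lines rise in all 12 lymphomas for Adgre1, Cd14, Cd68, Lyz1 and Lyz2, while Mrc1 stays near the dotted line.

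Before treatment the lymphomas already differed widely in these genes. The SD of the untreated log2 level across the 12 lymphomas had a median of 1.69 over the 10 markers, beside 0.25 over all single-gene probe sets and 0.34 over those with a mean above 4.47, the highest array median, used here as a floor for weak signals. Adgre1, the gene of a classical macrophage surface antigen, ran from 4.31 in lymphoma 1570 over a median of 7.31 to 9.87 in 5560. Csf1r ran from 5.07 in 1467 over a median of 9.06 to 10.65 in 403. Cd14 had the widest spread of the 10 (SD 2.43), from 4.37 in 5766 over a median of 7.25 to 11.00 in 5560. For each of these receptors some untreated lymphomas sat close to the floor and others several log2 units above it. Itgam was narrower, from 5.01 in 1467 over a median of 7.33 to 8.37 in 5560.

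The same few lymphomas tended to be high or low. Lymphoma 5560 was among the 3 highest untreated lymphomas for 10 of 10 markers, 403 for 7 and 6054 for 5. At the other end, 1467 was among the 3 lowest for 8 markers, 1570 for 7 and 2949 for 5. These counts include Lyz1 and Lyz2, which gave nearly the same signal, and Mrc1, which was at or below the floor in all 12 untreated arrays. Across the 45 pairs of markers the untreated levels had a median Pearson r of 0.525, from -0.022 for Mrc1 with Marco to 0.996 for Lyz1 with Lyz2; these are descriptions over 12 arrays that share each lymphoma's culture.

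Set against untreated Csf1r, 3 markers passed the test for correlation across lymphomas. Pearson r was 0.930 for Adgre1 (Spearman rho 0.916; adjusted permutation p 0.00019 for r and 0.00176 for rho), 0.939 for Itgam (rho 0.874; adjusted p 0.000285 and 0.00176) and 0.844 for Cd14 (rho 0.888; adjusted p 0.00266 and 0.00176). The raw permutation p of these r were 1e-05, the smallest that 100000 resamples can give, 3e-05 and 0.00056. These p-values were two-sided and adjusted over 19 relations in 1 family. Without lymphomas 1467 and 1570, the farthest from the Csf1r median, r was 0.914, 0.835 and 0.859 for Adgre1, Itgam and Cd14. Array file names of treated samples contained either "DOX" (7 lymphomas) or "sen" (5), and within the DOX set alone r was 0.866, 0.868 and 0.777; the sen set was too small for a value. The remaining markers did not pass: r was 0.578 for Marco (adjusted p 0.109), 0.511 for Cd68 (0.155), 0.436 for Mrc1 (0.197) and 0.290 for Cybb (0.368). Lysozyme was compared over 10 lymphomas, since 1467 and 1570 lie apart from the rest, and r was 0.353 for Lyz1 and 0.413 for Lyz2 (adjusted p 0.333 and 0.265).

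**Figure D2:**
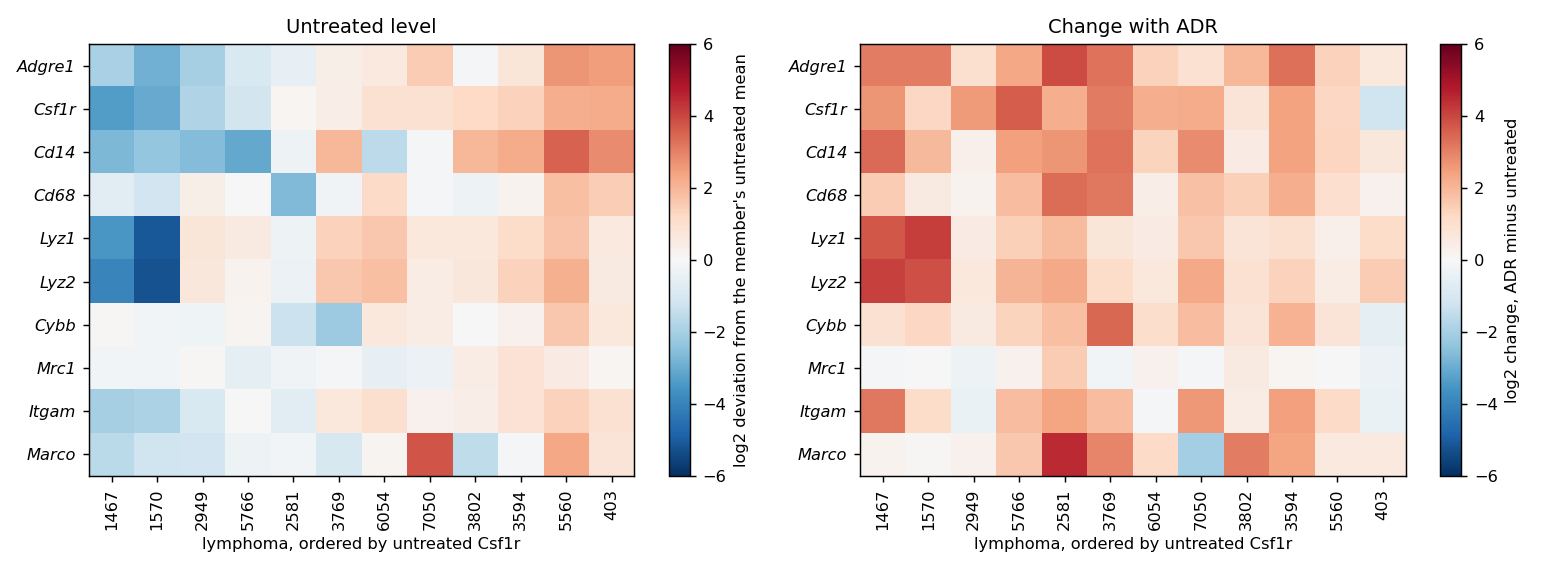
Left, untreated log2 level of each marker (rows) in each lymphoma (columns, ordered by untreated Csf1r) as the deviation from the marker's untreated mean; right, log2 change with ADR in the same order. Lymphomas 5560 and 403 are above the mean for nearly all markers on the left, and 1570 and 1467 show the lowest lysozyme levels on the left and the largest lysozyme changes on the right.

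Among the surface receptors, Adgre1 showed the largest rise. Its level went from 7.21 ± 1.76 (SD, n = 12) untreated to 9.40 ± 1.59 with ADR, where the lowest lymphoma was 2949 at 6.17, the median 9.42 and the highest 3594 at 11.25. The log2 change was 2.19 (SE 0.29, 4.56-fold, adjusted p 0.00016). The change was positive in every lymphoma, from 0.65 in 403 to 3.93 in 2581, although the groups overlapped and 5 of 12 ADR arrays lay above the highest untreated one. In 1467, 1570, 2581, 3594 and 3769 the change was above 3.

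Csf1r, the CSF1 receptor, rose in 11 of 12 lymphomas. It went from 8.41 ± 1.90 to 10.33 ± 1.77 (SD, n = 12), with ADR levels from 6.63 in 1570 over a median of 10.82 to 12.23 in 3594. The log2 change was 1.92 (SE 0.33, 3.78-fold, adjusted p 0.000949). Lymphoma 403, which had the highest untreated level, was the exception: it went from 10.65 to 9.46, a difference of -1.19, whereas 5766 went from 7.31 to 10.96. Both other Csf1r probe sets rose as well, by 1.67 (adjusted p 0.00195) and by 1.17 on the log2 scale (adjusted p 0.00928), and 403 was the lowest change in each.

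Cd14, the lipopolysaccharide co-receptor, rose in every lymphoma. Its mean went from 7.44 ± 2.43 to 9.37 ± 2.45 (SD, n = 12), with ADR levels from 5.14 in 2949 over a median of 9.85 to 12.69 in 3769. The log2 change was 1.92 (SE 0.28, 3.79-fold, adjusted p 0.000293), from 0.29 in 2949 to 3.40 in 1467. The spread between lymphomas was as wide after ADR as before, and 3 of 12 ADR arrays lay above the highest untreated one.

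Itgam, the CD11b integrin chain, rose in 9 of 12 lymphomas, the fewest among the called markers. It went from 6.99 ± 1.12 to 8.33 ± 1.43 (SD, n = 12), with ADR levels from 5.70 in 2949 over a median of 8.43 to 10.34 in 3594. The log2 change was 1.34 (SE 0.32, 2.54-fold, adjusted p 0.00806). The 3 lymphomas with a lower ADR value were 403 (-0.41), 2949 (-0.38) and 6054 (-0.12), and the largest change was 3.17 in 1467.

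Cd68, the lysosome membrane glycoprotein, also rose in every lymphoma. Untreated levels ran from 6.67 in 2581 over a median of 9.27 to 11.11 in 5560, and ADR levels from 8.70 in 1570 over a median of 10.91 to 12.26 in 3769. The mean went from 9.30 ± 1.20 to 10.77 ± 1.02 (SD, n = 12), a log2 change of 1.47 (SE 0.28, 2.77-fold, adjusted p 0.00186). The smallest change was 0.19 in 2949 and the largest 3.36 in 2581, the lymphoma that had the lowest untreated level.

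The lysozyme genes Lyz1 and Lyz2 lie next to each other on the same strand of mouse chromosome 10 and resemble each other closely, so their probe sets need to be read together. The 250 bases before each annotated start, from RefSeq on GRCm38.p6 (minus strand), are shown because the signals of both genes moved almost as 1. Capitals mark the longest run identical in both within these bases, 50 bases that reach the start site. Bases after the start were not compared. Over 252 alignment columns, 79.4% were identical.
Lyz1, chr10:117292869-117293118: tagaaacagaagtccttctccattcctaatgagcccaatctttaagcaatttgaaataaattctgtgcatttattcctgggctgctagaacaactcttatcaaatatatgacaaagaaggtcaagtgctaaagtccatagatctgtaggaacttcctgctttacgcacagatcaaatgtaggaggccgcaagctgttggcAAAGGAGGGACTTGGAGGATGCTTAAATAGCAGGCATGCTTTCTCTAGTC
Lyz2, chr10:117282273-117282522: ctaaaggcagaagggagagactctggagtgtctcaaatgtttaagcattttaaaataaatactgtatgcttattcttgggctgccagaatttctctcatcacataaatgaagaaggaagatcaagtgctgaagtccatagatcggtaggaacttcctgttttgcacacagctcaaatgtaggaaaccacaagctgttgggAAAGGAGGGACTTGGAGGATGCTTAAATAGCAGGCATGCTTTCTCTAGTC

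Untreated Lyz2, the macrophage lysozyme gene, ran from 6.03 in 1570 over a median of 11.83 to 13.36 in 5560. Lymphomas 1570 and 1467 (7.30) stood well below the other 10, of which the lowest was 2581 at 10.90. With ADR the levels ran from 9.88 in 1570 over a median of 13.40 to 14 in 3769, and the mean went from 11.24 ± 2.27 to 13.01 ± 1.24 (SD, n = 12). The log2 change was 1.77 (SE 0.31, 3.41-fold, adjusted p 0.00117), and it was positive in 12 of 12 lymphomas. The largest changes were in the lymphomas that began lowest, 4.08 in 1467 and 3.86 in 1570, and the smallest was 0.46 in 5560. Without 1467 and 1570, an alternative chosen after seeing the data, the log2 change of Lyz2 was 1.33 and it was still called.

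The representative Lyz1 probe set, whose Affymetrix identifier carries the suffix x, gave nearly the same picture. It went from 11.99 ± 2.10 to 13.46 ± 0.93 (SD, n = 12), with untreated values from 6.92 in 1570 over a median of 12.61 to 13.71 in 5560 and ADR values from 11.08 in 1570 over a median of 13.80 to 14.22 in 7050. The log2 change was 1.47 (SE 0.33, 2.77-fold, adjusted p 0.00512), higher in 12 of 12 lymphomas, and 0.97 without 1467 and 1570, more than 1.5 times smaller. The other Lyz1 probe set with this suffix changed by 1.55 (adjusted p 0.00145). The suffix marks probe sets whose probes can match more than 1 transcript. The third Lyz1 probe set lacks the suffix and stayed near the floor: 12 of 12 untreated and 11 of 12 ADR arrays were at or below 4.47, and its mean went from 3.41 ± 0.40 to 3.89 ± 0.56 (adjusted p 0.0337). Representative Lyz1 and Lyz2 values correlated with r = 0.996 untreated and 0.978 in the changes, as descriptions over 12 lymphomas. Whether the x probe sets measured Lyz1 or Lyz2 RNA was not tested.

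After ADR the lysozyme signals lay near the top of the array range. In ADR arrays the representative Lyz1 probe set was between 0.09 and 3.14 log2 units below the brightest probe set of its array, and the Lyz2 probe set between 0.25 and 4.33. The room for a further rise was thus small in the lymphomas with the highest untreated lysozyme; the part of this limit in their small changes was not tested.

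**Figure D3:**
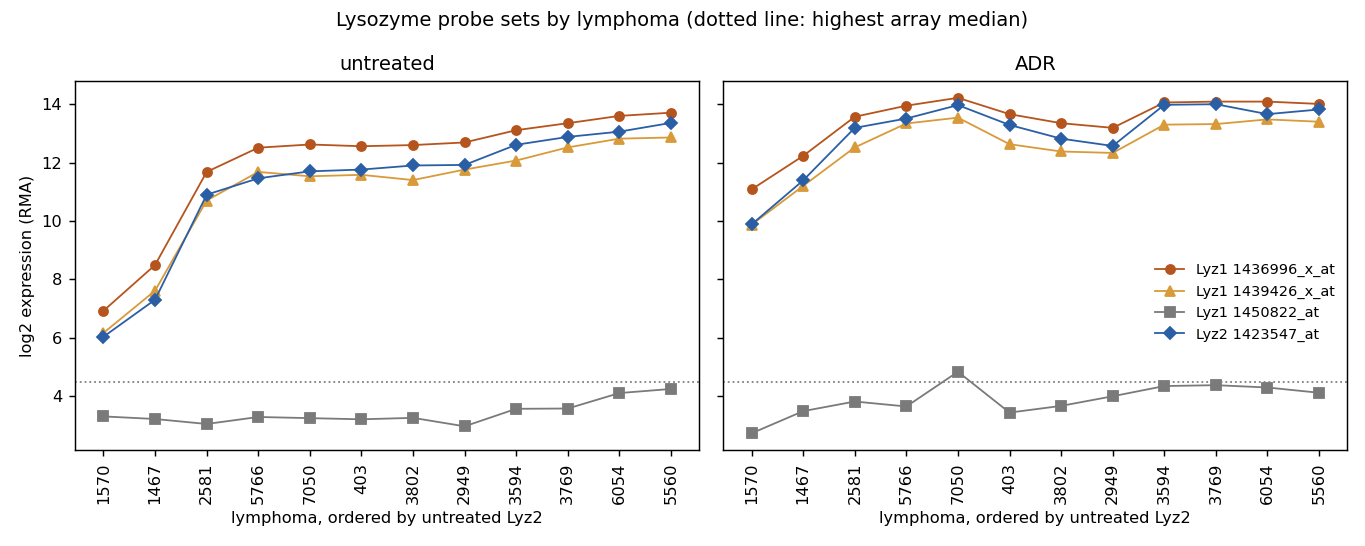
Log2 expression (RMA, y axis) of 3 Lyz1 probe sets and the Lyz2 probe set in each lymphoma (x axis, ordered by untreated Lyz2), untreated on the left and ADR on the right; lines only join the points of a probe set. Both x probe sets of Lyz1 follow Lyz2 through all lymphomas, with 1570 and 1467 lowest, while the Lyz1 probe set without the suffix lies near or under the dotted line at 4.47.

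Cybb, which encodes gp91phox, was among the more even markers before treatment, from 8.32 in 3769 over a median of 10.60 to 12.10 in 5560. With ADR it ran from 10.55 in 403 over a median of 11.69 to 12.84 in 5560. The mean went from 10.49 ± 0.96 to 11.76 ± 0.80 (SD, n = 12), a log2 change of 1.27 (SE 0.26, 2.42-fold, adjusted p 0.00287). It was higher in 11 of 12 lymphomas, most in 3769 (3.46), and lower in 403 (-0.57), the lymphoma that also had lower Csf1r. The other probe sets of Cybb changed by 1.22 and 1.46 (adjusted p 0.0149 and 0.00325).

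The scavenger and mannose receptors were the members that did not pass the test. Marco, a class A scavenger receptor, had untreated levels from 3.95 in 1467 over a median of 5.35 to 9.33 in 7050, and ADR levels from 4.18 in 1467 over a median of 7.06 to 9.89 in 2581. Its mean went from 5.58 ± 1.62 to 6.87 ± 1.69 (SD, n = 12), a log2 difference of 1.29 (SE 0.45) that missed the threshold (adjusted p 0.0522) although 11 of 12 lymphomas were higher. Lymphoma 7050 was the exception, going from 9.33 to 7.31 (-2.02), while 2581 went from 5.41 to 9.89 (4.48). Without 7050 the difference was 1.59 and was called (adjusted p 0.0124). The other Marco probe set gave 0.92 (adjusted p 0.172), higher in 8 of 12.

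Mrc1, the mannose receptor often used as a marker of alternatively activated macrophages, was near the floor in both groups. All 12 untreated arrays, from 2.98 to 4.44 with a median of 3.47, and 9 of 12 ADR arrays were at or below 4.47. The highest ADR value was 4.89 in 2581, and the mean log2 difference was 0.14 (SE 0.14, adjusted p 0.507), with 6 of 12 lymphomas higher. RMA compresses weak signals, so a change at this level would be understated.

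The changes of the other markers were compared with that of Csf1r within the same lymphomas by an exact two-sided sign-flip test over 12 pairs, adjusted over 9 markers. The difference for Mrc1 was -1.77 (SE 0.38, exact p 0.00195, adjusted p 0.0176), but with Mrc1 near the floor this value reflects the rise of Csf1r and does not show that Mrc1 responded differently. The change of Cybb minus that of Csf1r was -0.65 (SE 0.27) and below 0 in 9 of 12 lymphomas, and did not pass after adjustment (exact p 0.0352, adjusted p 0.158); without 403 the difference was -0.76 and the exact test's adjusted p was 0.0352. For the other 7 the differences ran from -0.63 (SE 0.58) for Marco to 0.27 (SE 0.37) for Adgre1, with exact adjusted p from 0.401 to 0.994. A p that misses the threshold does not show that these changes were equal.

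**Figure D4:**
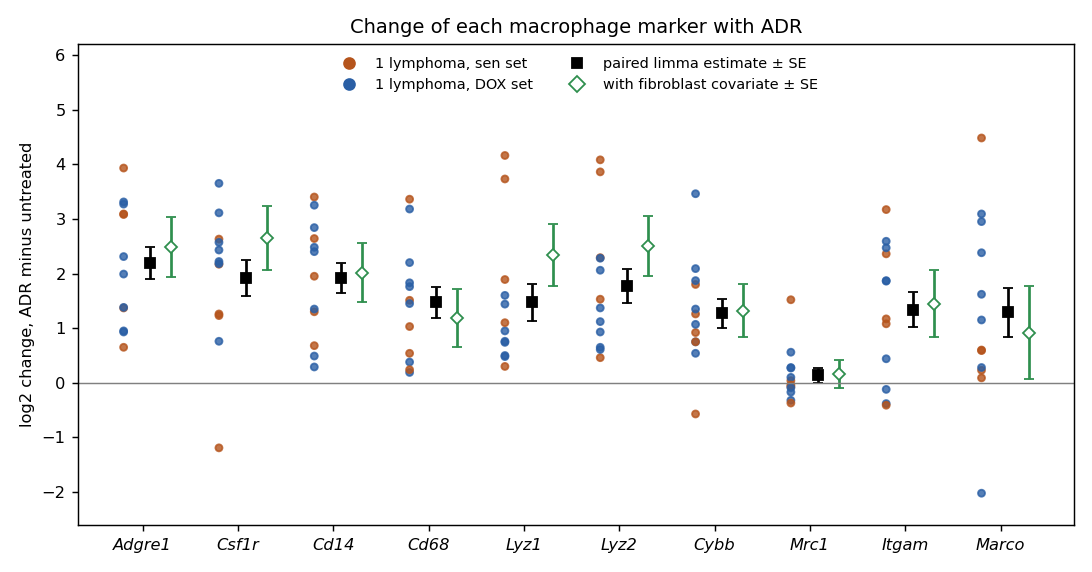
Log2 change (ADR minus untreated, y axis) of each marker: circles are the 12 lymphomas, squares the paired limma estimate ± SE, and open diamonds the estimate ± SE with the fibroblast marker mean of each array as a covariate. Squares lie between 1.27 and 2.19 for all markers but Mrc1 (0.14), and single lymphomas of Csf1r, Cybb, Itgam and Marco lie below 0.

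Lymphomas also differed in how far the whole group of markers moved. The median change over the 10 markers ran from 0.39 in 2949 and 0.42 in 403 to 2.85 in 1467 and 3.03 in 3769. Lymphoma 2949 was among the 3 smallest changes for 8 markers and 403 for 7, while 2581 and 3769 were among the 3 largest for 6 each. With ADR, 3594 was among the 3 highest levels for 9 markers and 2949 among the 3 lowest for 10 of 10. These counts again include both lysozyme genes, with nearly the same signal, and Mrc1, near the floor. The order of lymphomas before and after ADR was kept for Cd14 (r = 0.902, rho 0.888, permutation p 0.00024, adjusted 0.00152 for r) and for Adgre1 (r = 0.779, rho 0.790, permutation p 0.00291, adjusted 0.0111). Without the 2 farthest lymphomas r was 0.896 for Cd14 and 0.681 for Adgre1, and within the DOX set 0.917 and 0.804. For Csf1r r was 0.762 (rho 0.566, permutation p 0.00501, adjusted 0.0159) but 0.334 without 1467 and 1570 (permutation p 0.344), so the relation over all lymphomas did not hold without them. Within the DOX set, which holds neither of them, r was 0.699 over 7 lymphomas (permutation p 0.0724). The other 7 markers did not pass (r from 0.378 for Cybb to 0.583 for Mrc1, adjusted permutation p from 0.109 to 0.265). Among these, Lyz1 (r = 0.509) and Lyz2 (r = 0.494) were compared over 10 lymphomas, without 1467 and 1570. Both left-out lymphomas were the lowest for Lyz2 untreated (7.3 in 1467, 6.03 in 1570) and with ADR (11.39 and 9.88). Whether the lysozyme order was kept over all lymphomas was not tested.

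Genes that work with the markers were read from lists of named partners. Of 12 measured genes of the CSF1 axis and of macrophage transcription factors, 8 rose and 0 fell, with a median change of 0.82. The largest rises were Maf, a macrophage transcription factor, at 1.82 (3.54-fold, adjusted p 0.000572) and the ligand gene Csf1 at 1.71 (3.28-fold, adjusted p 0.000158), both in 12 of 12 lymphomas. Csf1 is also made by fibroblasts. Its change was largest in 403 (3.70), where Csf1r was lower, and smallest in 3594 (0.37). Spi1 itself, the PU.1 gene, rose by 0.70 (1.62-fold, adjusted p 0.0143) in 10 of 12 lymphomas, and B cells also express it. Irf8, with an untreated mean of 10.07, was not called (-0.25, adjusted p 0.226) and was named after its value was seen.

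Partners of the other receptors also moved. Of 7 lipopolysaccharide-sensing partners of CD14, 5 rose and 1 fell (median change 0.50): Tlr4, the signalling receptor, changed by 1.29 (2.45-fold, adjusted p 0.000834), its co-receptor gene Ly96 by 1.18 (2.26-fold, adjusted p 0.00034), and the adaptor gene Tirap by -0.30 (adjusted p 0.0103). Of 5 integrin partners 4 rose (median 0.55), led by the integrin chains Itgal at 1.02 (adjusted p 0.017) and Itgb2, the CD18 partner of CD11b, at 1.01 (adjusted p 0.00457). Of 4 measured oxidase subunits or partners of gp91phox, 3 rose (median 0.64): the cytosolic subunit genes Ncf1 and Ncf4 rose by 0.66 each (adjusted p 0.0436 and 0.0045), and Cyba, the p22phox membrane partner, by 0.62 (adjusted p 0.000659, 12 of 12 lymphomas), while Rac2 differed by 0.39 without passing (adjusted p 0.0721). Of 10 scavenger receptors 3 rose and 1 fell (median 0.38): Cd36 rose by 1.62 (3.07-fold, adjusted p 0.00118), Msr1 by 1.32 (2.50-fold, adjusted p 0.00405), and Scarb1, the HDL receptor, fell by 0.51 (adjusted p 0.00168).

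Of 20 further macrophage markers 11 rose and 0 fell, with a median change of 1.12. The largest rises were Ms4a7 at 2.89 (7.40-fold, adjusted p 3.73e-05) and Clec4n, the dectin-2 gene, at 2.44 (5.43-fold, adjusted p 0.000851), both in 12 of 12 lymphomas. At the other end, the complement genes C1qa, C1qb and C1qc and the tissue-resident macrophage markers Vsig4, Timd4 and Mertk had untreated means near the floor and were not called, and the same held for the scavenger receptor gene Cd163; these 7 were named after their values were seen. Single lymphomas departed from this: in 2581 the ADR array reached 10.83 for C1qb and 10.01 for C1qc, and untreated C1qb was 7.26 in 7050. Siglec1, Cx3cr1 and Ccr2 had group means above the floor and were not called either. Their log2 differences were 0.01, 0.20 and 0.57 (limma adjusted p 0.971, 0.808 and 0.294), and they too were named after their values were seen.

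Because Spi1 rose and PU.1 sites are a known feature of myeloid promoters, the 250 bases before marker starts were searched for the PU.1 core. Starts came from the RefSeq promoter table (GRCm38.p6), and the core was GAGGAA on either strand (TTCCTC on the other). The search covered 7 of the 10 markers and not Adgre1, Csf1r and Cd14. Entries on a chromosome left out for the markers were kept in the background share. The core was present in 4 of 7 (Itgam, Mrc1, Cd68 and Marco) and in 23.3% of 32851 promoters of that length. The marker count is per gene, whereas the background share is per promoter entry, so these shares are not of the same kind. Itgam and Mrc1 are shown because one rose and the other stayed near the floor although each held the core more than once, 2 matches in Itgam and 3 in Mrc1, in capitals. A match is a string of letters and not a measured binding site.
Itgam, chr7:128062390-128062639 (plus strand): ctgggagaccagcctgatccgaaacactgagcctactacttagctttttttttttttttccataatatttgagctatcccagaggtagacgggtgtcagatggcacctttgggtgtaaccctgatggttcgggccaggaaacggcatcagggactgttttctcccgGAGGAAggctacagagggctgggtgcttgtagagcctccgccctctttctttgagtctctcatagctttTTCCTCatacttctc
Mrc1, chr2:14229164-14229413 (plus strand): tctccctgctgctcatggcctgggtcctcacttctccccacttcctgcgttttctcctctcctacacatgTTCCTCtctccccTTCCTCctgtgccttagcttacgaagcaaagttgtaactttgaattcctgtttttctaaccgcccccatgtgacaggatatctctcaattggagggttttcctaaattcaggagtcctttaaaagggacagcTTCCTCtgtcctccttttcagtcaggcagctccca

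Markers of other cells moved in the same arrays. Of 14 measured B cell markers, all above the floor in both groups, 6 fell and 0 rose (median change -0.60), and their mean level per array lay between 8.68 and 9.59 untreated and between 7.21 and 10.21 with ADR. Of 19 measured fibroblast markers 15 rose and 0 fell (median change 2.17); the mean per array lay between 4.57 and 5.68 untreated and between 5.14 and 9.23 with ADR, and 9 of 19 were above the floor untreated against 17 with ADR. Of 9 mitosis genes 9 fell (median -2.28). Of 13 measured neutrophil markers 4 rose and 0 fell (median 0.09), Lcn2 by 2.77, Mmp8 by 2.46, S100a8 by 2.20 and Mmp9 by 1.73; the mean per array lay between 4.09 and 5.53 untreated and between 4.4 and 6.34 with ADR, and it was higher with ADR in 12 of 12 lymphomas. Neutrophils also express Itgam, Cd14, Lyz2 and Cybb, while the neutrophil granule genes Elane, Mpo, Ngp and Ltf were near the floor in both groups. All 8 mast cell and erythroid markers were near the floor in both groups. The part of these shifts in the macrophage marker changes was not tested beyond the values that follow.

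In lymphoma 1467 the fibroblast marker mean changed by -0.02, while the median change of the macrophage markers was 2.85. In 403 and 5560, where the fibroblast mean changed most (4.34 and 4.11), the median macrophage marker change was 0.42 and 0.89. In other lymphomas both were large, with a fibroblast change of 2.56 beside a macrophage marker change of 3.03 in 3769, 2.70 beside 2.32 in 2581 and 2.96 beside 2.29 in 3594. Both were small in 2949 (0.51 and 0.39) and in 3802 (0.92 and 0.76). The remaining lymphomas had 0.95 and 1.26 (1570), 1.47 and 0.84 (6054), 2.20 and 1.81 (7050) and 2.42 and 1.85 (5766). The relation of these changes across the 12 lymphomas was not tested. With the fibroblast marker mean of each array as a covariate beside the lymphoma block, 4 of the 10 markers stayed called: Csf1r at 2.65 (adjusted p 0.0243), Lyz2 at 2.50 (0.0245), Adgre1 at 2.48 (0.0251) and Lyz1 at 2.34 (0.0329). These are the representative probe sets. Both other Csf1r probe sets lost the call in this fit, at 1.81 (limma adjusted p 0.116) and 1.06 (0.325). Cd14 at 2.01 (0.053), Itgam at 1.45 (0.22), Cybb at 1.32 (0.161) and Cd68 at 1.19 (0.242) kept their direction and lost the call. In this order their SEs were 0.28, 0.32, 0.26 and 0.28 in the main fit and 0.54, 0.61, 0.49 and 0.53 with the covariate. The fibroblast mean rose with ADR in 11 of 12 lymphomas, so the covariate overlapped with the treatment in this fit. In that fit 1497 single-gene probe sets were called in all, against 8322 without the covariate. With the B cell marker mean as the covariate, an alternative chosen after seeing the data, all 8 stayed called, with log2 changes from 1.44 (Cybb) to 2.74 (Adgre1).

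**Figure D5:**
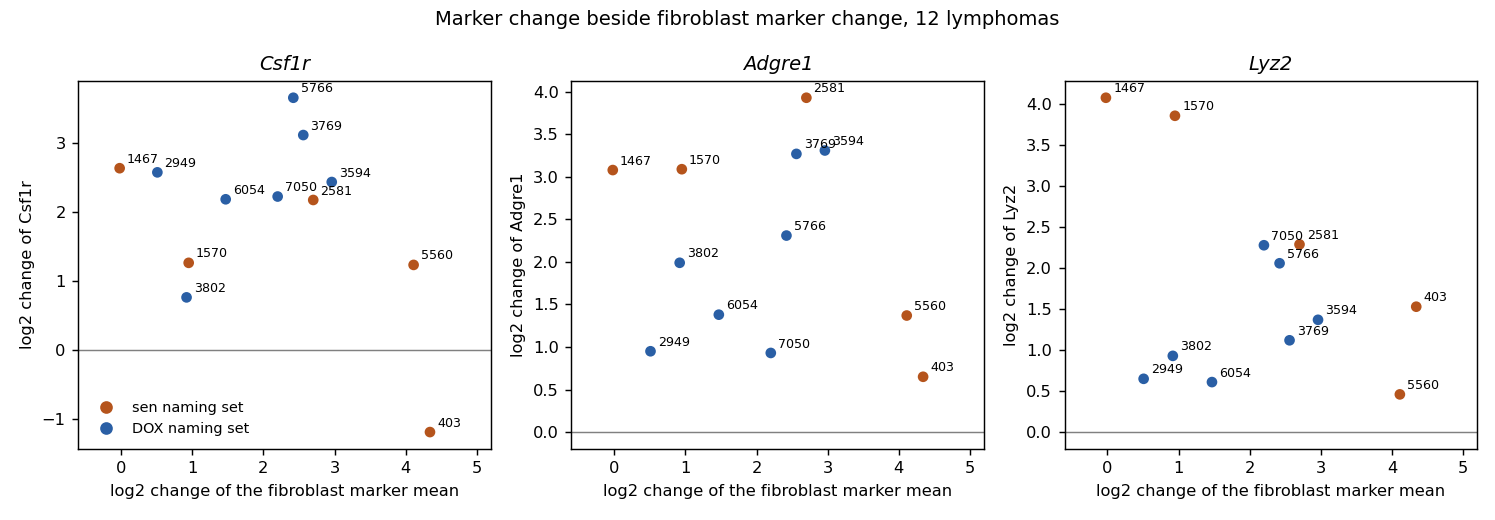
Log2 change of Csf1r, Adgre1 and Lyz2 (y axes) against the log2 change of the fibroblast marker mean (x axis) in each of 12 lymphomas, labelled by number. Lymphoma 1467, at -0.02 on the x axis, has a large positive change in all 3 genes, and 403, at 4.34, has the lowest Csf1r and Adgre1 change.

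The sen and DOX words in the array file names may mark separate processing of the treated samples. The difference of the ADR effect between the sets was called for 0 of 34945 single-gene probe sets by limma with an interaction term, with 2467 at an unadjusted p under 0.05. Among the markers' probe sets 0 of 17 were called and 4 had an unadjusted p under 0.05. Within sets, Csf1r changed by 1.22 in sen and 2.42 in DOX, Lyz1 by 2.24 and 0.92, Lyz2 by 2.44 and 1.29, Adgre1 by 2.42 and 2.02, Cd14 by 1.99 and 1.87, Cd68 by 1.34 and 1.57, Cybb by 0.83 and 1.59, and Itgam by 1.48 and 1.25. The direction was thus the same in both sets for all 8 markers, with 1 called in sen (Cd14, adjusted p 0.0491) and 7 in DOX (all but Itgam, adjusted p 0.0612).

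Beyond the lists, the genes most like the mean of the 10 markers, each standardised, were found among 11363 genes above the floor, as descriptions over 12 lymphomas that share arrays with the markers. In untreated levels they were Acod1, the itaconate-producing enzyme gene (r = 0.969), the C-type lectin gene Clec4d (0.957), the complement receptor gene C3ar1 (0.944), the adaptor gene Lcp2 (0.940) and Ms4a7 (0.938). In the changes they were Glipr1 (0.942), the adaptor gene Fyb (0.938), Gpr31b (0.935), Pld4 (0.925) and Slamf9 (0.924). All 10 of these genes were called higher with ADR, from a log2 change of 0.98 for Glipr1 to 2.99 for Clec4d. Among the markers, Itgam (0.923), Adgre1 (0.919) and Csf1r (0.917) had the highest untreated r with the mean of the other 9, and Cybb (0.384) and Mrc1 (0.391) the lowest.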

How the data were processed

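Total RNA of 12 lymphomas, untreated and with ADR, was measured on Affymetrix arrays, 24 in all. The authors deposited 1 log2 value per probe set and array; per the submitters' processing notes RMA and Partek were used, with versions and settings not given in the sources used here, and the log2 scale was read from the values (array medians 4.38 to 4.47). Scanner files were not used here. Of 45101 probe sets, 34945 had 1 gene symbol in the platform annotation, 932 had several, 9160 had none and 64 were controls; 34741 matched RefSeq by Entrez ID.

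Titles gave group and lymphoma, and the design text states matched pairs. Within pairs the deviations from the group means correlated with r from 0.257 to 0.589, above 0.1 in 12 of 12. The ADR array that matched an untreated array best had the same lymphoma number in 10 of 12 pairs. Changes were fitted with limma 3.58.1 in R 4.3.3 (lmFit, eBayes, lymphoma block), tested on simulated data first; permutation tests (100000 resamples, or all 4096 sign patterns) and figures used Python 3.11.15, numpy 2.4.6, scipy 1.17.1, pandas 2.3.3 and matplotlib 3.10.9. A probe set was near the floor if its mean in a group was at or below 4.47. Precision is limited by the number of arrays. Each pair is a separate lymphoma, so the p-values of changes rest on how much the change varied between lymphomas. With 1 array per lymphoma and group, variation between lymphomas and variation between cultures or arrays cannot be told apart.

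Named are all markers, the 2 largest called rises and falls of each partner list, and the 5 genes most like the markers untreated and in the changes; Spi1, Cyba, Rac2, the neutrophil genes and the genes said so in the text were named after their values were seen. Members and lists were chosen with earlier results of these data known. Alternatives covered the block, probe set choice, scaling, a floor filter, the variance model, marker covariates, naming sets and left-out lymphomas.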

Additional observations from a re-analysis of the deposited data

How the results depend on the processing

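With lymphoma as a replicate block 8322 single-gene probe sets and 8 of 10 markers were called. With no replicate block these were 5192 and 3 (Adgre1, Cd68 and Cybb). One test per gene gave 4829 calls among 18193 tests, beside 8322 among 34945 in the main fit. The fibroblast covariate gave 1497 calls and 4 markers, the B cell covariate 3537, the sen set alone 1350 and 1 marker, and the DOX set alone 5176. Leaving out 1 lymphoma at a time gave 6740 to 8920 calls and 8 to 9 markers. Median centring, quantile normalization, a floor filter, an intensity trend and the exact sign-flip test left 8 to 9 markers called. No marker change turned its direction in any setting run, and under quantile normalization all 19 correlations stayed on their side of the threshold. Marco was called with 1 test per gene (adjusted p 0.0488), the floor filter (0.0329), the intensity trend (0.0453), without 7050 (0.0124) and without 1467 and 1570 (0.0478). Signals near the floor limit Mrc1 and the third Lyz1 probe set, and signals near the top of the range limit Lyz1 and Lyz2.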

Other observations

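The neutrophil genes that rose with ADR were picked after their values were seen. Lcn2, a siderophore-binding protein gene, was 6.80-fold higher (limma adjusted p 4.91e-05), Mmp8, a collagenase gene, 5.50-fold (adjusted p 0.00201), S100a8, a calcium-binding alarmin gene, 4.58-fold (adjusted p 0.00353) and Mmp9, a gelatinase gene, 3.32-fold (adjusted p 0.000554). Each of the first 3 was higher in 12 of 12 lymphomas and Mmp9 in 11. The receptor gene Cxcr2 and S100a9, the partner of S100a8, were near the floor in both groups and were not called.

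Of 7 measured dendritic cell markers 2 fell and 0 rose: Ccr7, a chemokine receptor gene, by 0.93 (adjusted p 0.00908) and Flt3, a growth factor receptor gene, by 0.57 (adjusted p 0.00405). The other 5 were not called, and of these Xcr1, Zbtb46, Itgae and Cd209a were near the floor in both groups. Whether the falls reflect dendritic cells was not tested. Of 12 T and NK cell markers 1 was called, Gzma, with a level near the floor.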
